A study of Mus musculus with 9 samples.

Results

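The genes described here are the peroxisome proliferator-activated receptors (PPARs), their dimer partner retinoid X receptor alpha, and 5 genes that PPARs are known to switch on. They were taken from the deposited gene table by symbol, which found 9 of its 57238 entries: the receptors Ppara, Pparg and Ppard, the partner Rxra, and the targets Fabp4, Fabp5, Angptl4, Pdk4 and Lpl. The libraries were made from RNA of dendritic cells grown from bone marrow (BMDCs) of wildtype C57BL/6 mice, and the comparison addressed here is which receptor the targets follow when the cells meet exosomes. Per the labels, marrow cells were cultured for 6 days with GM-CSF at 20 ng/ml in all groups. Control cells (CTR) received nothing, NE-treated cells received exosomes of NIH-3T3, an immortalised mouse fibroblast line that is not cancerous, whereas TDE-treated cells received tumor-derived exosomes. Exosomes were given for 24 h, and there were 3 libraries in each of the 3 groups. The labels do not name the tumor cells, nor do they say whether the 3 libraries of a group came from separate mice or cultures, so p-values measure only the spread between these libraries, which may be technical. GM-CSF culture of marrow gives a mixture of dendritic cells, macrophages and granulocytes.

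PPARs are nuclear receptors that bind fatty acids and their derivatives, pair with a retinoid X receptor and sit on DNA at a direct repeat of the motif AGGTCA with a single base between the copies. PPARα is best known for switching on fatty acid oxidation in liver, PPARγ for lipid uptake and storage in adipocytes and alternatively activated macrophages, and PPARδ is found in most tissues and also acts in fat burning and in macrophages. Several targets, such as Angptl4 and Pdk4, can be activated by any of the receptors, so a target's level does not name its receptor.

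The receptor genes lie on different chromosomes, and the starts of Pparg and Ppard are shown because these genes moved in opposite directions between the groups. RefSeq windows of 250 bases before to 50 bases after a transcript start on GRCm38.p6 covered 5 of the 9 genes with 8 starts. These were Ppara, Pparg, Ppard, Rxra and Pdk4, so Fabp4, Fabp5, Angptl4 and Lpl had no window. Capitals mark AGGTCA or its reverse complement TGACCT; where there are no capitals, these letters were not in the window. The first and the most downstream of the Pparg starts in the table and the single Ppard start, all on the plus strand, read as follows.
Pparg first start, chr6:115360894-115361193: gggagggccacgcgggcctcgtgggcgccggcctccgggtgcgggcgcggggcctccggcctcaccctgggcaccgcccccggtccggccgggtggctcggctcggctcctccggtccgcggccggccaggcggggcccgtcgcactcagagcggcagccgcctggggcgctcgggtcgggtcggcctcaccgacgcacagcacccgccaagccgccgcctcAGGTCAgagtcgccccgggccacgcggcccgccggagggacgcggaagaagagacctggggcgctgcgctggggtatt
Pparg downstream start, chr6:115421816-115422115: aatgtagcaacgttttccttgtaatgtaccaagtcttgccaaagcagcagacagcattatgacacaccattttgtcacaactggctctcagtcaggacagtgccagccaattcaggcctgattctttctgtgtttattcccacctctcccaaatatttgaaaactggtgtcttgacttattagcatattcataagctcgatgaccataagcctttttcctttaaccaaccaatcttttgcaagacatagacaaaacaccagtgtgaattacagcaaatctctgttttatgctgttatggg
Ppard, chr17:28232504-28232803: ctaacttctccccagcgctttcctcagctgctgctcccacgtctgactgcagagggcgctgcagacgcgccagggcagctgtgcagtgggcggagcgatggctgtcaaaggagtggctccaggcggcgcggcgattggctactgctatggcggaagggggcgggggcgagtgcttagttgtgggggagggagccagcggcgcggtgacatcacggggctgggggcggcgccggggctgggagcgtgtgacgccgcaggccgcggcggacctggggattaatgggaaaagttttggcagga
AGGTCA on either strand was in 3 of the 8 windows, all at starts of Pparg or Rxra, and in 5340 (16.3%) of all 32851 windows in the table. The GC content was 80.3% in the first Pparg window, 40.3% in the downstream one and 68.3% at Ppard. A direct repeat of AGGTCA with 1 base between the copies and at most 2 mismatches, on either strand, was in 3.86% of all windows. Among the 8 windows it was found at a start of Rxra alone, at chr2:27709042-27709341. Counts here are per gene and cannot be split between the starts.

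Libraries held 17469782 to 21092943 estimated reads. Levels are given in CPM, reads per 1000000 reads of the library after scaling with TMM, edgeR's trimmed mean of M-values, and a floor of 3 reads was worth 0.135 to 0.190 CPM. CTR replicate 1 stood apart from the rest. Its log2 CPM profile correlated at most at 0.900 with another library, whereas no correlation among the other 8 libraries was under 0.941, and its TMM factor was 0.751 against 0.999 to 1.07 elsewhere. Results on the 9 genes and counts over lists are therefore also given without it where they moved. Of the 9 genes, 7 passed the filter on low counts and were tested among 15028 genes, and Ppara and Pdk4 did not pass it.

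In TDE-treated against CTR BMDCs, Pparg, Fabp4, Fabp5, Angptl4 and Lpl fell and Ppard rose, while Rxra did not pass the test. At an adjusted p under 0.05 in edgeR's quasi-likelihood test, 5 of the 7 tested genes were lower, where 9.34% of all tested genes were lower, and 1 was higher, where 7.57% were higher. The median log2 fold change was -1.47 over the 7 genes and -0.05 over all tested genes. The genes were chosen with earlier results of these data known, so their contrast with all tested genes is a description and no test. TDE-treated and CTR libraries did not overlap at any of the 7 genes, as at 44.0% of all tested genes. Against NE-treated BMDCs, 3 of the 7 genes (Pparg, Angptl4 and Lpl) were lower in TDE-treated BMDCs, where 7.21% of all tested genes were, and 1 (Ppard) was higher, where 6.73% were. The groups did not overlap at any of the 7 genes here either, as at 54.5% of all tested genes, and the medians were -1.30 over the 7 genes and -0.02 over all. The comparisons share libraries (TDE in these, CTR with the next one), so they are not independent of each other. Between NE-treated and CTR BMDCs, edgeR called 0 of the 7 genes and 0 of all tested genes (0%). Of all tested genes, 487 had an unadjusted p under 0.05 in that comparison, and the Wald test of DESeq2 called 0 higher and 3 lower and limma voom with sample weights 2 higher and 16 lower. The libraries of NE-treated and CTR BMDCs did not overlap at 1 of the 7 genes, Pparg, and at 7.71% of all tested genes. In such bulk libraries, fewer cells of a type and less RNA per cell cannot be told apart.

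**Figure D1:**
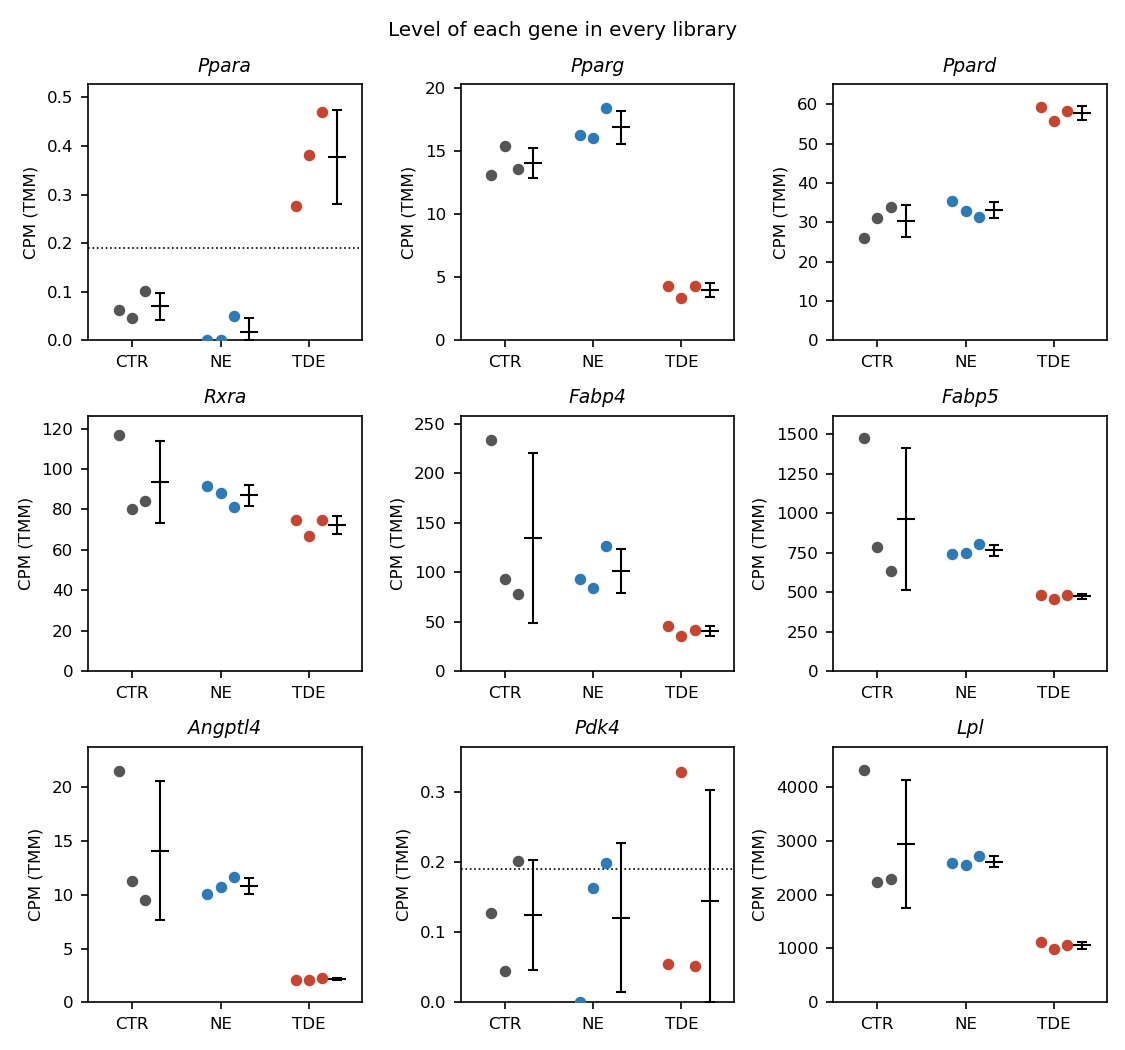
Level of each of the 9 genes in CPM (TMM-scaled, linear axes from 0) in CTR, NE-treated and TDE-treated BMDCs, with a dot per library, the mean and SD (n = 3) beside each group, error bars cut at 0, and a dotted line at the highest floor of 3 reads (0.190 CPM) for Ppara and Pdk4. The TDE libraries lie below all others for Pparg, Rxra, Fabp4, Fabp5, Angptl4 and Lpl and above all others for Ppard and Ppara.

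Pparg (ENSMUSG00000000440, chr6:115360951-115490399, plus strand, GRCm38), the receptor of lipid uptake and storage, was at 13.1, 15.4 and 13.6 CPM in CTR replicates 1 to 3. It was at 16.2, 16.0 and 18.3 CPM in NE-treated and at 4.32, 3.38 and 4.28 CPM in TDE-treated BMDCs. Every TDE library was below every other library, and every NE library was above every CTR library. The level in TDE-treated BMDCs was 3.50-fold lower than in CTR BMDCs (log2 fold change -1.81 ± 0.16 SE, adjusted p = 0.000337) and 4.21-fold lower than in NE-treated BMDCs (-2.07 ± 0.16, adjusted p = 0.000162). NE-treated against CTR BMDCs differed by 0.27 ± 0.15 on the log2 scale, which did not pass the test (adjusted p = 0.659). The log2 fold change of TDE-treated against CTR BMDCs was -1.86 without CTR replicate 1.

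Ppard (ENSMUSG00000002250, chr17:28232700-28301474, plus strand) was the one tested receptor that rose. Its level was 26.0, 31.1 and 33.9 CPM in CTR, 35.3, 33.0 and 31.2 CPM in NE-treated, and 59.4, 55.8 and 58.2 CPM in TDE-treated BMDCs. CTR and NE libraries overlapped, and all TDE libraries were above them. TDE-treated BMDCs were 1.90-fold above CTR BMDCs (log2 fold change 0.93 ± 0.13 SE, adjusted p = 0.00313) and 1.74-fold above NE-treated BMDCs (0.80 ± 0.13, adjusted p = 0.00558). The difference of NE-treated from CTR BMDCs was 0.13 ± 0.13 (adjusted p = 0.662). Leaving out CTR replicate 1 gave 0.82 ± 0.09 against CTR.

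Ppara (ENSMUSG00000022383, chr15:85734983-85802819, plus strand), the receptor of fatty acid oxidation in liver, was listed with few reads in every library. CTR libraries were listed at 0.87, 0.65 and 1.78 estimated reads, NE libraries at 0, 0 and 1, and TDE libraries at 5.16, 6.76 and 8.99. The TDE libraries were the highest, and all CTR and NE libraries lay under the floor of 3 reads. Rounded and summed over a group, TDE-treated BMDCs had 21 reads, CTR 4 and NE-treated 1. The ratio of TDE-treated to CTR BMDCs was 5.46, with a 95% exact interval of 1.84 to 21.9 that covers counting error only, and the ratio to NE-treated BMDCs was 21.7 (3.49 to 898). An exact two-sided permutation test of the group means gave p = 0.1 for each, the smallest that 3 against 3 libraries allow. Its mean level was 0.376 ± 0.10 CPM (SD, n = 3) in TDE-treated BMDCs, under the means of Ppard and Pparg there.

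The form of the Ppara entry differed from nearly all others. Of 3161 entries with a fractional value in all 6 CTR and TDE libraries, 9 had whole numbers in all 3 NE libraries, and Ppara was among them, as were Cpt1a and Cpt2, which encode the carnitine palmitoyltransferases that bring fatty acids into mitochondria. These 3 genes were also the only ones of 714 entries with a deposited CTR mean of 1 whose CTR values were all fractional. The authors' CTR mean of Ppara was 1, whereas its 3 CTR values average 1.1. Ppara was the single entry among 57238 whose deposited CTR mean was off by more than 0.02, and none was off by that much for NE or TDE. The Ppara reads, and their higher number in TDE-treated BMDCs, hold only as far as this entry was made like the others, which was not tested.

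Cpt1a was listed at 1.02, 0.94 and 1.04 estimated reads in CTR, 0, 1 and 0 in NE-treated and 2.06, 2.28 and 3.14 in TDE-treated BMDCs. Cpt2 was listed at 1.04, 0.93 and 1.04, at 0, 1 and 1, and at 1.36, 1.34 and 1.44 reads. The 19 tested genes of fatty acid oxidation had means of 17.6 to 3063 reads per library, with a median of 899, so both were far under the other genes of their list. Ppargc1a, the coactivator of oxidative metabolism, was also close to 0, with 2 reads over the CTR, 6 over the NE and 12 over the TDE libraries.

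Within a library, levels of different genes were compared in TPM, which divides reads by the deposited gene length and gives every library the same total. Pparg made up 46.2 ± 3.2% of the summed TPM of the PPARs in CTR (SD, n = 3), 48.5 ± 3.2% with NE and 11.3 ± 1.1% with TDE. Ppard made up 53.7 ± 3.1%, 51.5 ± 3.2% and 88.0 ± 1.1%, and Ppara 0.135%, 0.0330% and 0.744%. The shares in CTR and NE libraries overlapped, and in every TDE library Ppard was the major receptor. The ratio of Pparg to Ppard in TPM was 0.934, 0.917 and 0.742 in the CTR libraries, 0.853, 0.900 and 1.09 in the NE libraries and 0.135, 0.113 and 0.137 in the TDE libraries. This ratio does not depend on how libraries are scaled to each other. It did not set CTR replicate 1 apart, although the summed PPAR level of that library was 14.6 TPM against 36.0 to 43.5 TPM in the other 8.

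**Figure D2:**
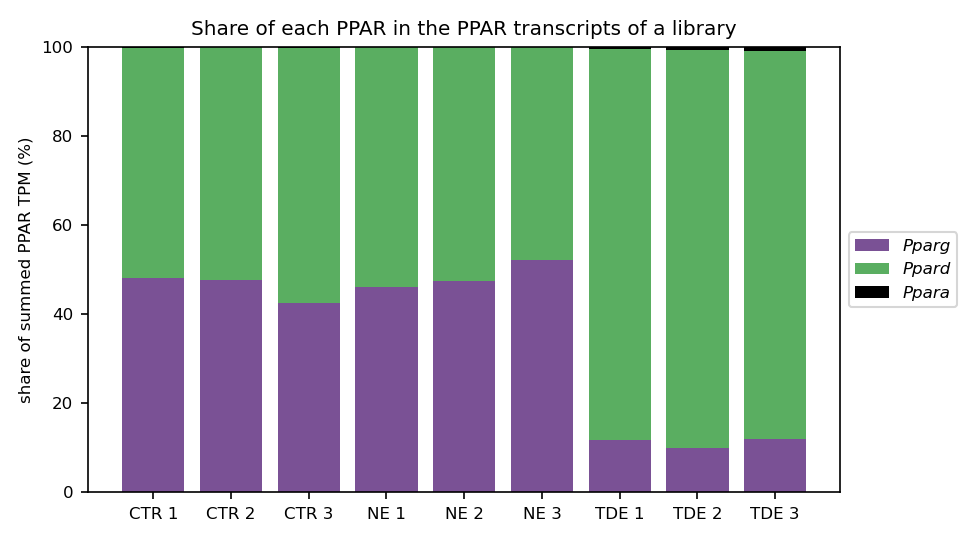
Share (%) of Pparg, Ppard and Ppara in the summed PPAR transcripts (TPM) of each of the 9 libraries, as stacked bars. Pparg takes 42.5 to 52.1% in the CTR and NE libraries and 10.04 to 11.9% in the TDE libraries, where Ppard takes 87.2 to 89.2%.

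Rxra (ENSMUSG00000015846, chr2:27676440-27762957, plus strand), the partner that PPARs need to bind DNA, was at 117, 80.1 and 84.1 CPM in CTR, 91.7, 87.9 and 81.1 CPM in NE-treated and 74.9, 67.1 and 75.0 CPM in TDE-treated BMDCs. The TDE libraries were the lowest, by a small margin, and CTR replicate 1 was the highest. Neither the log2 fold change against CTR (-0.37 ± 0.17, adjusted p = 0.149) nor that against NE-treated BMDCs (-0.27 ± 0.17, adjusted p = 0.379) passed the test. With CTR replicate 1 left out the values were -0.19 (adjusted p = 0.120) and -0.27, and the latter then passed (adjusted p = 0.0205). In TPM, the range of the TDE libraries (40.9 to 45.8) lay inside that of the CTR libraries (34.4 to 57.5). Rxrb, which encodes another partner, was at 71.9, 52.4 and 82.2 CPM in the 3 groups in the order CTR, NE, TDE and was not called, and Rxrg was at 0 in every library.

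Angptl4 (ENSMUSG00000002289, chr17:33773750-33781830, minus strand) encodes a secreted inhibitor of lipoprotein lipase and fell most of the 7 tested genes. Its level was 21.4, 11.3 and 9.49 CPM in CTR, 10.1, 10.7 and 11.6 CPM in NE-treated and 2.11, 2.07 and 2.30 CPM in TDE-treated BMDCs. All TDE libraries were below all others, and CTR replicate 1 was the highest. TDE-treated BMDCs were 6.48-fold below CTR BMDCs (log2 fold change -2.70 ± 0.31 SE, adjusted p = 0.00115) and 4.98-fold below NE-treated BMDCs (-2.32 ± 0.31, adjusted p = 0.00201). Leaving out CTR replicate 1 gave a log2 fold change of -2.27 against CTR.

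Lpl (ENSMUSG00000015568, chr8:68880491-68907448, plus strand) encodes lipoprotein lipase, which frees fatty acids from circulating triglycerides for uptake. It was read at 4311, 2225 and 2281 CPM in CTR, 2577, 2541 and 2718 CPM in NE-treated and 1119, 998 and 1062 CPM in TDE-treated BMDCs. The TDE libraries were again below all others. The level fell 2.77-fold against CTR (log2 fold change -1.47 ± 0.26 SE, adjusted p = 0.00738) and 2.46-fold against NE-treated BMDCs (-1.30 ± 0.26, adjusted p = 0.0127). The call against NE-treated BMDCs was lost when any single TDE library was left out (adjusted p between 0.0545 and 0.0634). The log2 fold change against CTR was -1.10 without CTR replicate 1. Since its inhibitor fell further, the ratio of Lpl to Angptl4 in TPM was 371 ± 42 in the CTR, 423 ± 20 in the NE and 856 ± 62 in the TDE libraries (SD, n = 3).

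Fabp4 and Fabp5 lie near each other on chromosome 3 and encode carriers that bind fatty acids in the cytoplasm and bring them to other compartments. Fabp4 (ENSMUSG00000062515, chr3:10204088-10208576, minus strand), the carrier of adipocytes and macrophages, was at 234, 93.2 and 77.9 CPM in CTR, 93.1, 84.3 and 127 CPM in NE-treated and 45.9, 35.9 and 42.1 CPM in TDE-treated BMDCs. The TDE libraries were the lowest and CTR replicate 1 the highest. The log2 fold change against CTR was -1.71 ± 0.40 (SE, adjusted p = 0.0241). That against NE-treated BMDCs was -1.30 ± 0.40 and did not pass (adjusted p = 0.0685). Without CTR replicate 1, the log2 fold change against CTR was smaller (-1.06 ± 0.18) and still passed (adjusted p = 0.00173), and that against NE-treated BMDCs passed too (-1.31 ± 0.16, adjusted p = 0.000255).

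Fabp5 (ENSMUSG00000027533, chr3:10012548-10016607, plus strand), which is described as a carrier of ligands to PPARδ, was at 1477, 788 and 635 CPM in CTR, 742, 747 and 808 CPM in NE-treated and 485, 456 and 482 CPM in TDE-treated BMDCs. As at Fabp4, the TDE libraries were the lowest and CTR replicate 1 the highest, and the differences of TDE from CTR and NE were smaller. The log2 fold change was -1.03 ± 0.29 (SE, adjusted p = 0.0433) against CTR and -0.69 ± 0.28 (adjusted p = 0.164) against NE-treated BMDCs. The corresponding values without CTR replicate 1 were -0.60 ± 0.10 (adjusted p = 0.00149) and -0.70 ± 0.09 (adjusted p = 0.000264). Calls of Fabp4 and Fabp5 against CTR were lost when any single TDE library was left out, with adjusted p between 0.0817 and 0.0990 and between 0.134 and 0.141. The call of Fabp5 was also lost without any single NE library (0.0701 to 0.0762) or without CTR replicate 2 (0.0534). The ratio of Fabp5 to Fabp4 in TPM was 6.94 ± 1.1 in the CTR, 7.02 ± 1.1 in the NE and 10.5 ± 1.0 in the TDE libraries.

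Pdk4 (ENSMUSG00000019577, chr6:5483351-5496309, minus strand) encodes the kinase that turns off pyruvate dehydrogenase when cells burn fat, and was hardly read. The libraries held 2, 1 and 4 reads in CTR, 0, 3 and 4 in NE-treated and 1, 6 and 1 in TDE-treated BMDCs. Group sums were 7, 7 and 8 reads, and the groups overlapped. The ratio of TDE-treated to CTR BMDCs was 1.19 (95% exact interval 0.377 to 3.85, counting error only; exact permutation p = 0.8, two-sided). This interval spans the ratio seen for Ppard, so a change of that size was not detectable at this depth.

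**Figure D3:**
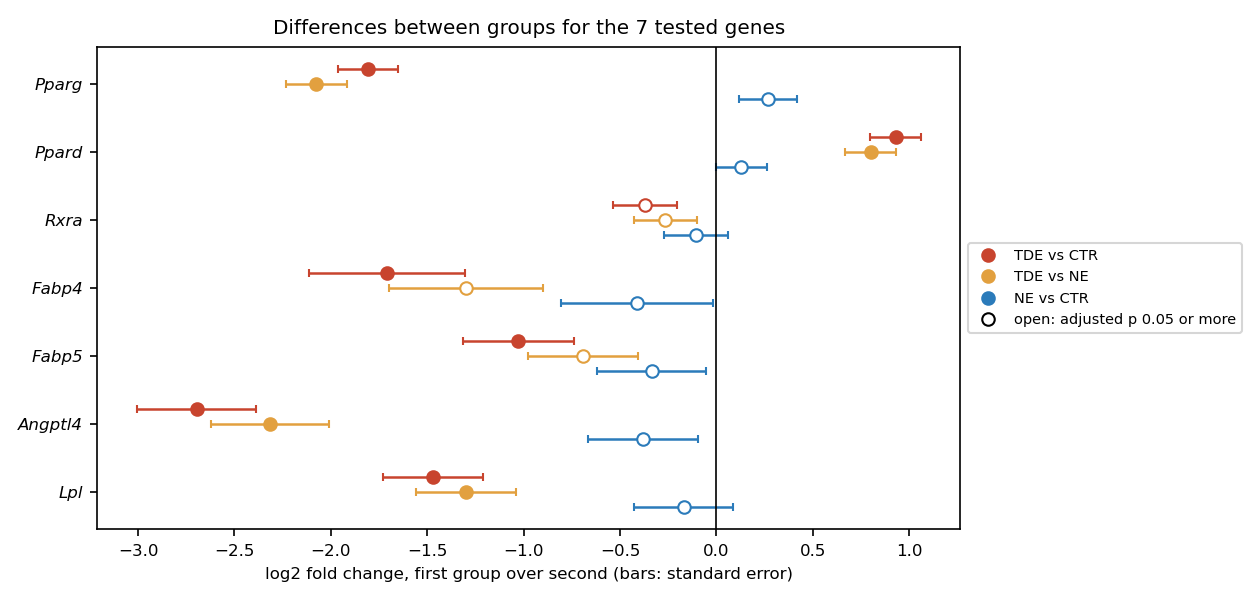
Log2 fold change (dots) with its standard error (bars) from edgeR for the 7 tested genes in 3 comparisons, filled where the adjusted p was under 0.05. Ppard lies to the right of 0 and Pparg, Fabp4, Fabp5, Angptl4 and Lpl to the left in both comparisons with TDE, and no gene is filled in NE vs CTR.

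Ordered by TPM, Lpl was the most abundant of the 9 genes in each group, with means of 2369, 2823 and 1091 TPM in CTR, NE-treated and TDE-treated BMDCs. Fabp5 followed at 1471, 1592 and 940.0 TPM, then Fabp4 at 215, 230.0 and 90.1 TPM and Rxra at 47.0, 55.8 and 44.0 TPM. Next came Ppard at 16.3, 20.9 and 34.5 TPM, Pparg at 13.7, 19.6 and 4.43 TPM and Angptl4 at 6.40, 6.68 and 1.28 TPM. Pdk4 (0.0625, 0.0686 and 0.0815 TPM) and Ppara (0.0407, 0.0122 and 0.291 TPM) were last. Ppard and Pparg overlapped in CTR and NE-treated BMDCs and were not separable in that order, and nor were Pdk4 and Ppara. In TDE-treated BMDCs no neighbours overlapped, Ppard was 7.80-fold above Pparg, and Ppara stood above Pdk4. The scale mattered for CTR replicate 1. In CPM its Lpl, Fabp4, Fabp5 and Angptl4 were the highest of all libraries, whereas in TPM the whole CTR range of Lpl was 2149 to 2639 TPM. Its Pparg was the lowest of the CTR libraries on both scales, by a wider margin in TPM (7.03 TPM).

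To describe which receptor the targets followed, each gene's log2 CPM (prior count 2) was centred on its own mean over the 9 libraries, and genes were compared by the root mean square of the differences between their profiles. A small value means profiles alike in direction and size. Ppara did not pass the filter and was left out, so the targets were not compared with it. Angptl4 was at 0.46 from Pparg, 1.01 from Rxra and 1.60 from Ppard. Lpl was at 0.43, 0.51 and 1.11 from the same genes, and Fabp4 at 0.55, 0.62 and 1.21. For Fabp5 the nearest receptor was Rxra at 0.31, ahead of Pparg at 0.66 and Ppard at 0.90. So 3 of the 4 tested targets were nearest to Pparg of the compared receptors, and all 4 were farthest from Ppard. Any gene clearly lower with TDE lies far from Ppard, which rose. The share of all tested genes with the same order was not counted, so whether the order is particular to targets was not tested. Without CTR replicate 1 the order of the receptors was the same for each target, and Angptl4 came to 0.17 from Pparg. These distances are descriptions over 9 libraries that share group differences and scaling.

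**Figure D4:**
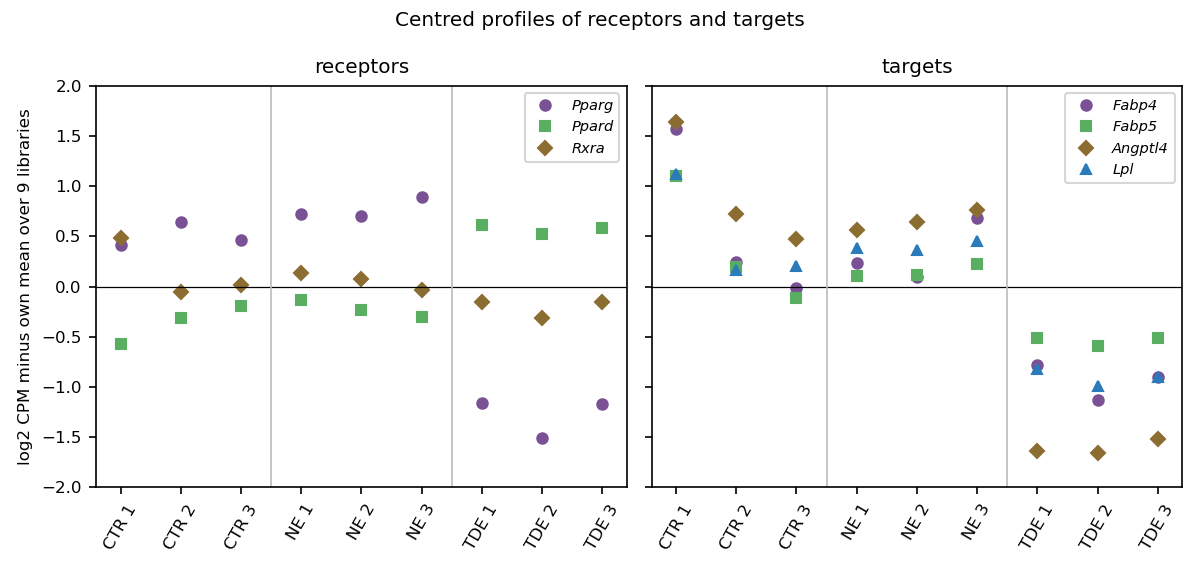
Centred log2 CPM of 3 receptor genes (left) and 4 target genes (right) in each of the 9 libraries, where 0 is the gene's own mean and vertical lines separate CTR, NE and TDE. In the TDE libraries Pparg and the targets lie below 0 and Ppard above it, and the targets are highest in CTR replicate 1, where Pparg and Ppard are not.

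Among 10452 tested genes with a mean of at least 5 CPM, the profiles most like that of Pparg were those of Spp1 (0.12), Anpep (0.13) and Clec7a (0.14), which encode osteopontin, aminopeptidase N and the β-glucan receptor dectin. Nearest to Ppard were Lair1 (0.05), Tnfrsf1b (0.05) and Aplp2 (0.06), and nearest to Rxra were Actn4 (0.05), 2410131K14Rik (0.05) and Fam20c (0.06). None of these is a member of the group described here, and each was nearer to its receptor than any of the targets was.

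Other genes of the pathway were taken from lists of known targets and partners, and their counts are to be read against 7.57% higher and 9.34% lower among all tested genes, or 16.4% and 18.0% without CTR replicate 1. Of 26 genes of fatty acid oxidation 19 were tested, and in TDE-treated against CTR BMDCs none rose and 1 fell, Acot1 (log2 fold change -2.03 ± 0.25 SE, adjusted p = 0.00142), an acyl-CoA thioesterase whose reads may be shared with its near-identical paralog Acot2. With CTR replicate 1 left out, 2 of the 19 rose and 4 fell. Of 15 targets of PPARγ in adipocytes and macrophages 8 were tested, and none was called in either direction against CTR, or 1 in each without CTR replicate 1. Cd36, the fatty acid translocase on that list, was at 393 ± 148 CPM in the CTR, 550 ± 40 in the NE and 221 ± 9.3 in the TDE libraries (SD, n = 3), and was lower against NE-treated BMDCs (-1.32 ± 0.28, adjusted p = 0.0154) but not called against CTR (-0.83 ± 0.27, adjusted p = 0.0716), although it passed without CTR replicate 1 (-1.13 ± 0.08, adjusted p = 1.39e-05). It was named after its values were seen. The median log2 fold changes against CTR were -0.20 for the oxidation genes and -0.43 for the PPARγ targets, with -0.05 over all tested genes. The corresponding medians against NE-treated BMDCs were 0.026, -0.00087 and -0.024. Against NE-treated BMDCs, 0 of the 19 oxidation genes were higher and 2 lower, and 0 of the 8 PPARγ targets were higher and 2 lower. The shares of all tested genes in that comparison were 6.73% higher and 7.21% lower.

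Of 8 targets shared by the receptors, all tested, 1 rose and 1 fell against CTR (3 and 2 without CTR replicate 1). Hilpda, which encodes an inhibitor of triglyceride breakdown on lipid droplets, rose from 9.36 ± 2.6 to 99.1 ± 4.3 CPM (log2 fold change 3.41 ± 0.23 SE, adjusted p = 0.000103). Plin2, the droplet coat protein perilipin, fell from 702 ± 86 to 347 ± 6.2 CPM (-1.02 ± 0.14, adjusted p = 0.00287).

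Among 15 RXRs and coregulators, 13 were tested and 1 fell (1 rose and 2 fell without CTR replicate 1), the coactivator Pprc1 (log2 fold change -0.62 ± 0.15 SE, adjusted p = 0.0280), whose exons overlap those of Ldb1 on the other strand. Among 11 other receptors that pair with RXR, 9 were tested, and Thra, a thyroid hormone receptor, rose (1.46 ± 0.18, adjusted p = 0.00149), as did the orphan receptor Nr4a2 (1.37 ± 0.29, adjusted p = 0.0166), while the vitamin D receptor Vdr fell (-0.65 ± 0.15, adjusted p = 0.0203). Without CTR replicate 1, 5 of these 9 rose and 2 fell. Exons of Thra overlap those of Nr1d1 on the other strand, and the strand counted is not given in the sources used here. Of 7 further fatty acid binding proteins 2 were tested, and neither was called.

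Among 13 lipase partners and PDK family genes, 11 were tested, 2 rose and 2 fell, or 4 and 3 without CTR replicate 1. Lipg, which encodes endothelial lipase, rose from 1.35 ± 0.90 to 24.0 ± 2.5 CPM (log2 fold change 4.12 ± 0.48 SE, adjusted p = 0.00123), and Pdk1 rose from 61.7 ± 26 to 241 ± 6.2 CPM (1.97 ± 0.31, adjusted p = 0.00442). Pdk2 (0.06 ± 0.13) and Pdk3 (0.34 ± 0.13) were not called, so 1 of the 3 tested PDK genes was called, and Pdk3 passed only without CTR replicate 1 (0.23 ± 0.08, adjusted p = 0.0417). Apoe, the lipoprotein ligand, fell from 4111 ± 3287 to 187 ± 7.2 CPM (-4.46 ± 0.54, adjusted p = 0.00146). The Apoe fold was 22.0 with and 12.0 without CTR replicate 1, which had the highest level. The lysosomal lipase Lipa fell from 659.8 ± 107 to 383 ± 27 CPM (-0.79 ± 0.17, adjusted p = 0.0165). In the KEGG PPAR map as deposited, 43 genes other than the members were tested, of which 2 rose and 4 fell, to be read against the same 7.57% and 9.34%. Gpihbp1, which anchors lipoprotein lipase on capillaries, was at 0 in every library.

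**Figure D5:**
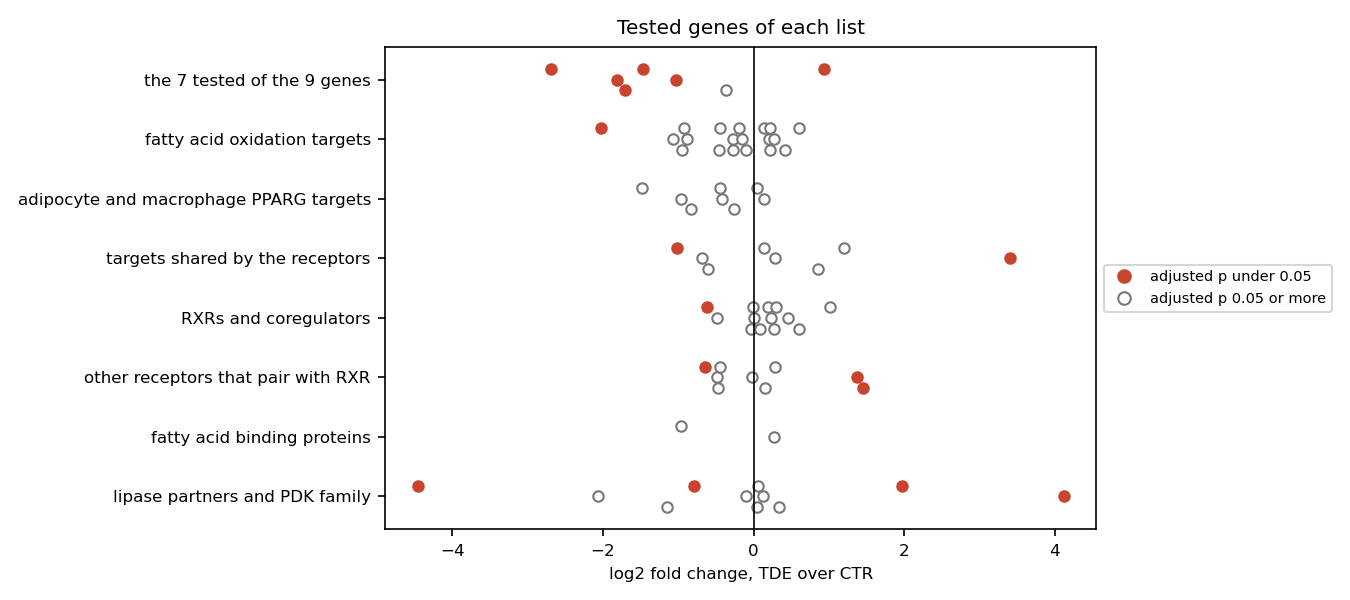
Log2 fold change of TDE-treated over CTR BMDCs for each tested gene of the group described here (top) and of 7 lists of related genes, filled where the adjusted p was under 0.05. Most dots of the related lists are open and lie on both sides of 0, whereas 6 of the 7 tested genes on top are filled. The genes and lists were chosen with earlier results of these data known, so this contrast is no test.

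Summed markers of several cell types were lower in TDE-treated BMDCs, as were Pparg and the tested targets. Counts of markers called against CTR are to be read against 7.57% higher and 9.34% lower among all tested genes. Without CTR replicate 1 these shares were 16.4% and 18.0%. Over 8 dendritic cell markers the summed level was 3216 to 11197 CPM in CTR, 3084 to 3939 in NE-treated and 1577 to 1673 in TDE-treated BMDCs, and 4 of 7 tested markers fell against CTR. Cd74 was the largest part of this sum, with means of 4455, 2214 and 867 CPM. Flt3 (log2 fold change 0.02 ± 0.15 SE), Zbtb46 (-0.32 ± 0.14) and Itgax (-0.41 ± 0.14) were not called. Zbtb46 and Itgax passed only without CTR replicate 1. Over 8 granulocyte markers the sum was 5852 to 25376, 6159 to 8948 and 3169 to 3426 CPM in CTR, NE and TDE libraries, with 6 of 8 lower. Over 7 eosinophil or mast cell markers it was 504 to 1554, 531 to 602 and 120 to 143 CPM, with 6 of 7 lower. In CPM, CTR replicate 1 was the highest library for each of these sums, as it was for Fabp4, Fabp5, Angptl4, Lpl and Rxra. Its Pparg, at 13.1 CPM, was instead the lowest of the CTR libraries. In TPM the order differed, and its Rxra (34.4 TPM) was the lowest of all 9 libraries. Its Angptl4 (6.13 TPM) and Lpl (2149 TPM) were the lowest of the CTR and NE libraries on that scale. The sum of 8 macrophage markers was higher with TDE, at 4956 to 5315 CPM. CTR libraries summed to 3695 to 4155 CPM and NE libraries to 3481 to 3904 CPM. Of the 8 tested, 1 was called higher and 2 lower against CTR. The higher one was Adgre1, with a mean of 2229 CPM after TDE against 378 CPM for CTR (log2 fold change 2.56 ± 0.30 SE, adjusted p = 0.00130). Adgre1 alone rose by more than the sum did, so the higher sum rested on this gene. The median log2 fold change of the 8 markers against CTR was -0.44. Leaving out CTR replicate 1 gave 2 higher and 5 lower macrophage markers and 6 of 7 lower dendritic cell markers. Adipocyte markers summed to at most 0.109 CPM in any library, with Cidec and Lep at 0 throughout. Lymphocyte markers summed to 20.99 to 37.1 CPM in CTR, 18.6 to 24.3 in NE-treated and 10.8 to 11.1 in TDE-treated BMDCs, with 4 of 4 tested markers lower. Fibroblast markers summed to 3.99 to 4.47, 3.72 to 4.97 and 6.01 to 7.05 CPM in the same order, with 1 of 4 tested higher, the collagen-binding proteoglycan gene Dcn (3.23 ± 0.47, adjusted p = 0.00339). Epithelial markers summed to 8.22 to 8.90, 10.9 to 12.7 and 4.37 to 7.05 CPM, with 1 of 2 tested lower, the cadherin gene Cdh1 (-0.74 ± 0.18, adjusted p = 0.0282). The part of cell composition in the levels of the 9 genes was not tested.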

How the data were processed

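RNA of 9 BMDC libraries was analysed from the table that the authors deposited, which holds estimated counts (expected counts) of reads per gene without normalization, group means and a gene length. The submitters' processing notes name TopHat2 2.1.1, DESeq2 1.24.0 and R 3.3.1. The read counter, genome build, annotation and strand are not given in the sources used here. The authors' group means were used only to check the Ppara entry and those like it, and their gene length only for TPM. The table's KEGG annotation gave the PPAR map. The paper's methods give 7 days of culture where the labels give 6.

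Estimated counts were rounded, filtered with filterByExpr and scaled by TMM. All 9 libraries were fitted with 1 mean per group in edgeR 4.0.16 (R 4.3.3), and groups were compared by the quasi-likelihood F test with Benjamini-Hochberg adjustment over 15028 genes and a threshold of 0.05. Standard errors were the size of the log2 fold change divided by the square root of F. Genes under the filter were compared by exact two-sided permutation tests of mean CPM and Clopper-Pearson intervals of summed reads. The code was tested on simulated data. Python 3.11.15 with scipy 1.17.1 was used for tables. Positions came from GENCODE vM21 (GRCm38).

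The 9 genes and the lists were chosen with earlier results of these data known. Genes named beyond the 9 were at most 4 called genes per list with the largest change against CTR, Ppargc1a, Cpt1a and Cpt2, and the 3 genes nearest to each tested receptor. Cd36, Rxrb, Rxrg, Pdk2, Pdk3, Gpihbp1 and the marker genes were named outside this rule, after their values were seen. Fits were repeated with DESeq2 1.42.0, RLE factors, library totals as the only scaling, 2 other filters, a fit to 6 libraries and a replicate block. Further repeats used limma voom (limma 3.58.1) with sample weights, and left out each library in turn. Unrounded reads were used only to repeat the comparisons of genes under the filter, which were not fitted. The counts and values of listed genes without CTR replicate 1 were added after seeing the data.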

Additional observations from a re-analysis of the deposited data

How the results depend on the processing

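In TDE-treated against CTR BMDCs, Pparg, Ppard, Angptl4 and Lpl passed the test in each of 17 alternatives, Fabp4 in 12 and Fabp5 in 7, and Rxra in 0. Of the 7 tested genes, 3 were lower rather than 5 on the 6 libraries of the pair and with a replicate block, and 3 to 5 when a library was left out, because Fabp4 and Fabp5 missed the threshold (with the block, adjusted p = 0.0529 and 0.0965 in edgeR). Replicate numbers did not pair the libraries: deviations of same-numbered libraries correlated between -0.585 and 0.185, and no pairing is stated. Against NE-treated BMDCs, Pparg and Angptl4 passed in 17 alternatives, Ppard in 16, Lpl in 14, Fabp4 in 6, Fabp5 in 4 and Rxra in 3. The count of lower genes was 5 with library totals, 6 on the 6 libraries, 6 with voom weights and 2 to 6 when a library was left out, with 6 without CTR replicate 1, and the count of higher genes was 0 with library totals, where Ppard had an adjusted p of 0.0694. In NE-treated against CTR BMDCs, where no gene was called, Rxra turned to 0.059 with library totals and 0.14 with voom, and Lpl to 0.031 and 0.19. With a library left out there, the log2 fold change ranged from -0.20 to 0.081 for Rxra, -0.33 to 0.21 for Lpl, -0.68 to 0.24 for Fabp4, -0.56 to 0.10 for Fabp5 and -0.59 to 0.051 for Angptl4, and each was positive without CTR replicate 1. Library totals moved the median of all genes in that comparison from 0.0048 to 0.12. Without CTR replicate 1, TDE-treated against CTR BMDCs had 2 higher and 4 lower oxidation genes, 1 and 1 PPARγ targets, 3 and 2 shared targets, 1 and 2 RXRs and coregulators, 5 and 2 other receptors, and 4 and 3 lipase partners and PDK genes. Over all genes, 1137 were higher and 1404 lower against CTR, but 614 and 671 with the block, 567 and 585 on the 6 libraries, 3878 and 4008 with voom, 2503 and 2760 without CTR replicate 1 and 535 and 568 without TDE replicate 3. Against NE-treated BMDCs the counts were 1011 and 1084, but 2991 and 3081 on the 6 libraries, 4063 and 4248 with voom, 586 and 589 with the block, 2934 and 3289 without CTR replicate 1 and 502 and 468 without TDE replicate 3. The cause of these shifts was not tested. Depth limits Ppara and Pdk4, which had at most 9 reads in a library.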
